A study of Mus musculus with 4 samples.

Results

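The proteasome is the protease complex that degrades ubiquitin-tagged proteins. The genes described here are those of the deposited table whose symbol starts with Psm, then one of the letters a, b, c, d, e or g and a digit, which covers the core rings, the regulatory caps, the activators and the assembly chaperones. The pattern matched 49 of 17958 genes, and 47 of the 49 encode a proteasome part or chaperone. The other matches, Psmc3ip and Psme3ip1, are named for proteins they bind. Psmb11, the catalytic subunit of the thymus, was not analysed here.

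The study compared untreated mouse epidermis of the genotypes IL-36Ra-cKO and IL-36Rafl/fl by RNA sequencing, with 2 libraries of each. IL-36Ra is the receptor antagonist of the IL-36 cytokines, cKO stands for conditional knockout, and the fl/fl mice carry floxed alleles as controls. A knockdown and WT are what the genotype field says of the groups, and the labels give no Cre driver, no age and no sex. Whether replicate libraries stem from different mice is not stated, so a p-value here reflects the spread between libraries, which may be technical.

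The libraries held 14622791 to 16490602 counts. The targeted gene, listed under its older symbol Il1f5, had 3258 and 2508 counts in the cKO libraries and 3743 and 3489 in the fl/fl libraries, so the label was not borne out by a loss of gene counts. The table does not resolve exons, and the comparison is of libraries by their labels. The Y-linked gene Ddx3y had 1575 and 2002 counts in the cKO libraries against 0 and 1, so sex and genotype label cannot be told apart. All 8 keratinocyte markers examined were read, with summed levels of 28133 to 36967 CPM (counts scaled to library size with TMM factors). Between the groups, 4 of the 8 had a positive fold change and 4 a negative one. Lor stood at 1940 and 1012 CPM in the cKO libraries against 356 and 336 in the fl/fl libraries. Dsg3 went the other way, at 42.1 and 51.4 against 183 and 154 CPM. Hair shaft markers summed to 192 and 3.50 CPM in the cKO libraries against 1211 and 1441 in the fl/fl libraries. Skeletal muscle markers summed to 1155 CPM in cKO replicate 2 against 37.4 to 95.7 in the other libraries. Of these muscle markers, Myh4 was lower in both cKO libraries, at 6.26 and 7.85 against 14.8 and 13.9 CPM. Blood markers also summed highest in cKO replicate 2, at 292 CPM against 56.3 to 67.4 in the other libraries. Adipocyte markers summed to 180 CPM in fl/fl replicate 1 against 396 to 409 in the other libraries. On the leading principal component, with 73.4% of the variance, the cKO libraries lay farther from each other (-27.1 and -76.3) than the fl/fl libraries did (58.9 and 44.5).

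The core particle of the proteasome is a barrel of stacked rings. Alpha subunits form the outer rings and gate the channel, and beta subunits form the inner rings, where Psmb5, Psmb6 and Psmb7 encode the standard catalytic sites. In leukocytes, and in other cells exposed to interferon gamma, newly made particles take up the inducible subunits encoded by Psmb8, Psmb9 and Psmb10 in place of Psmb5, Psmb6 and Psmb7 respectively, which alters the peptides cut for display on class I molecules. A cap of ATPases and ubiquitin-handling subunits unfolds tagged proteins, and the PA28 ring of Psme1 and Psme2 products is an alternative activator that interferon gamma also induces.

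In the mouse gene table Psmb9, Tap1, Psmb8 and Tap2 stand next to each other on chromosome 17, Tap1 and Tap2 encoding the transporter that carries the cut peptides. Psme1 and Psme2 lie on chromosome 14 with a single protein-coding gene, Emc9, between them. The 250 bases before the start of Psmb8 and Psmb9, the members with the largest fitted differences, are shown with those of Psmb5 and Psmb6, the standard genes whose products they replace. They are RefSeq sequences of build GRCm38.p6, an older build than the GRCm39 of the submitters' processing notes. They lie at chr17:34197945-34198194 on the plus strand, chr17:34187331-34187580 on the minus strand, chr14:54617996-54618245 on the minus strand and chr11:70525107-70525356 on the plus strand. Each reads 5′ to 3′ toward the gene, and capitals mark matches on either strand to any of 6 motifs: the core of the interferon-stimulated response element, the gamma-activated site TTCNNNGAA, the antioxidant response element core TGACNNNGC, the TATA box core TATAAA, the CCAAT box and the GC box GGGCGG.
Psmb8: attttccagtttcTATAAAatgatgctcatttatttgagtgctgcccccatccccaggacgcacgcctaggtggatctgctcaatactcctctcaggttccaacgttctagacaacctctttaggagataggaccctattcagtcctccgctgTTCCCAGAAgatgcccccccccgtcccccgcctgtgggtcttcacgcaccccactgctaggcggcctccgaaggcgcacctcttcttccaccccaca
Psmb9: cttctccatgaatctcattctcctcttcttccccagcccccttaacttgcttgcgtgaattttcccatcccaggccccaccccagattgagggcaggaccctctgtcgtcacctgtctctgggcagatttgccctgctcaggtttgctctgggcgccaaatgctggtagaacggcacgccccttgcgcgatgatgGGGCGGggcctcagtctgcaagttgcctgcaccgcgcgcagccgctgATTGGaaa
Psmb5: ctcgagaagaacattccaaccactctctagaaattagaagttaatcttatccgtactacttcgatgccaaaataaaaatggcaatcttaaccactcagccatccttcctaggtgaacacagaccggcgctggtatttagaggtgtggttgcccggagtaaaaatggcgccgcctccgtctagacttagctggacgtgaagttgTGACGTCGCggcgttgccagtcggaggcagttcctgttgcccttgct
Psmb6: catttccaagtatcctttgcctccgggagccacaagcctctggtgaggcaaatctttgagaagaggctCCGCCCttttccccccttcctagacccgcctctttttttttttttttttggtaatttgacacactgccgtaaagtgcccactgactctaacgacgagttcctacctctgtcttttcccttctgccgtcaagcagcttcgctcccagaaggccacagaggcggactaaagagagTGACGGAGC

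The Psmb8 sequence held a gamma-activated site match 97 to 89 bases before the start and a TATA box core match, and the Psmb9 sequence a GC box and a CCAAT box match. Psmb5 and Psmb6 each held a match to the antioxidant response element core, and Psmb6 also a GC box. Promoters were at hand for 41 of the 49 members, and those of Psma8, Psmb1, Psmb2, Psmb7, Psmc3, Psmd3, Psmd7 and Psmg2 were not used here. Members were counted per gene, with a match in any of its promoters, and the background per promoter, so the shares below differ in unit. Among the 41, the gamma-activated site matched in 2 (4.88%, Psmb8 and Psmg1) against 7.02% of all 32851 promoters, and the interferon element core in 3 (7.32%, Psmb3, Psmd4 and Psmd9) against 2.98%. The antioxidant element core matched in 5 members (12.2%, against 10.2%) and the GC box in 23 (56.1%, against 32.7%). The CCAAT box matched in 15 members (36.6%, against 33.8%) and the TATA box core in 4 (9.76%, against 12.4%). A match is a run of letters and not a measured binding site.

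The 5 interferon-inducible members, Psmb8, Psmb9, Psmb10, Psme1 and Psme2, were higher in both cKO libraries than in either fl/fl library, by fitted factors of 1.42 to 2.36. Of the standard catalytic subunits, Psmb5 and Psmb6 overlapped between the groups on the per-length scale and Psmb7 was lower in both cKO libraries. The log2 fold changes of the counts, the scale of the factors above, were positive for Psmb5, Psmb6 and Psmb7 (0.36, 0.29 and 0.04). On CPM Psmb5 was higher in both cKO libraries, and Psmb6 and Psmb7 overlapped. The other activators, Psme3 and Psme4, lay lower. None of these differences passed the threshold, an adjusted p of 0.05 in edgeR's quasi-likelihood test over 14459 genes. At that threshold 0 of 47 tested members were called, where the test called 4 genes in all (0.0277%), while DESeq2 called 6 members at its own adjusted p, where it called 19.1% of all genes. The 4 genes called by edgeR include the Y-linked Ddx3y, Uty and Eif2s3y. At an unadjusted p under 0.05, 5 members were higher, against 16.5% of all genes tested, and 5 lower, against 15.6%, so 10.6% of the members lay on each side, a share under the background. With the trend on transcript length removed, the higher share was 4.26% (background 15.1%) and the lower share 25.5%, above its background of 14.9%. The 5 on the higher side were the 5 inducible members, of which 3 stayed under that p with either cKO library dropped, 2 with fl/fl replicate 1 dropped and 5 with fl/fl replicate 2 dropped. The 5 lower ones became 1, 0, 0 and 3 without cKO replicates 1 and 2 and fl/fl replicates 1 and 2 in turn. On CPM the groups did not overlap for 14 members that were higher in the cKO libraries (background 34.8%) and 12 that were lower (32.9%), and on TPM for 8 (25.2%) and 26 (43.4%). The fold change was positive for 26 of 47 members, against 50% of all genes.

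Psmb8 encodes the inducible counterpart of the chymotrypsin-like subunit Psmb5. It stood at 52.3 and 73.8 TPM (transcript abundance scaled to length and library) in the cKO libraries and at 30.9 and 31.2 TPM in the fl/fl libraries. The groups did not overlap, and the distance between the cKO libraries was wider than that between the fl/fl libraries. Means were 63.1 ± 15.2 against 31.1 ± 0.262 TPM (SD, n = 2 libraries per group), and the log2 fold change of the counts (cKO over fl/fl in every case) was 1.24 ± 0.20 (SE, edgeR adjusted p = 0.0692). Without cKO replicate 1 it was 1.42 with an adjusted p of 0.0275, and DESeq2 gave an adjusted p of 4.31e-04.

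Psmb9 is the inducible counterpart of Psmb6. It had 42.9 and 47.8 TPM in the cKO libraries and 23.3 and 25.6 TPM in the fl/fl libraries. Both cKO values were above both fl/fl values, with close replicates in each group. The log2 fold change was 1.17 ± 0.19 (SE, edgeR adjusted p = 0.0702; DESeq2 6.43e-04). Psmb10, the counterpart of Psmb7, was the least abundant of the catalytic subunits, at 20.4 and 27.5 against 14.2 and 18.1 TPM. Its groups did not overlap but came within 2.33 TPM of each other, and its log2 fold change was 0.78 ± 0.24 (SE, edgeR adjusted p = 0.119).

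Psme1 and Psme2 encode the alpha and beta chains of PA28, a ring that opens the core without ATP. Psme1 stood at 168 and 182 TPM in the cKO libraries against 135 and 157 TPM, and Psme2 at 275 and 271 against 205 and 221 TPM. Both genes were higher in both cKO libraries, by less than the catalytic members. The log2 fold changes were 0.50 ± 0.18 for Psme1 and 0.61 ± 0.18 for Psme2 (SE, edgeR adjusted p = 0.138 and 0.107), and DESeq2 called Psme2 at 0.0324. The chains kept a TPM ratio, Psme1 to Psme2, of 0.611 and 0.672 in the cKO and 0.656 and 0.713 in the fl/fl libraries. Psme2 has a near copy, Psme2b, listed at 0 to 4.90 counts, and the Psme2 counts were not all whole, so the split of reads between the 2 genes is uncertain. Psme2b was not tested.

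**Figure D1:**
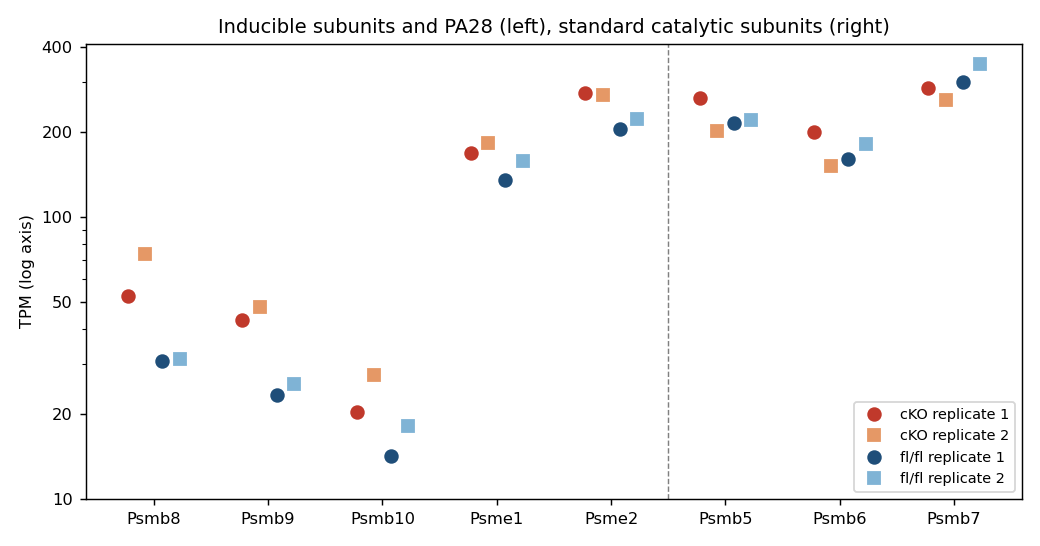
TPM (log axis) of the 5 inducible members and the 3 standard catalytic subunits in each of the 4 libraries; each point is 1 library. For each inducible member both cKO points lie above both fl/fl points, from Psmb10 at 14.2 to 27.5 TPM up to Psme2 at 205 to 275 TPM, whereas the points of Psmb5 and Psmb6 interleave and those of Psmb7 run the other way.

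The standard catalytic subunits were several times more abundant than their inducible counterparts. Psmb5 stood at 263 and 200.5 TPM in the cKO libraries and 215 and 220 TPM in the fl/fl libraries, and Psmb6 at 199.6 and 151 against 160.3 and 181 TPM. For both genes cKO replicate 1 was the highest and cKO replicate 2 the lowest library, so the groups overlapped on TPM. On CPM Psmb5 did not overlap, at 143 and 99.0 in the cKO libraries against 90.9 and 97.1 in the fl/fl libraries. Psmb7 stood at 287 and 259.9 against 301 and 349 TPM, lower in both cKO libraries on this scale. On the counts the log2 fold changes were 0.36 (95% interval -0.24 to 0.97) for Psmb5, 0.29 (-0.34 to 0.91) for Psmb6 and 0.04 (-0.49 to 0.58) for Psmb7, with edgeR adjusted p values of 0.316, 0.428 and 0.892. All 3 intervals include no difference. Those of Psmb5 and Psmb6 also include differences as large as those of Psme1, Psme2 and Psmb10, and that of Psmb7 one as large as that of Psme1. The sign of Psmb5 and Psmb6 turned negative with the trend on transcript length removed, and that of Psmb7 there, on TPM, and with either cKO replicate 1 or fl/fl replicate 1 dropped.

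Within a library, the level of an inducible subunit can be set against the standard subunit it replaces. Psmb8 reached 19.9% and 36.8% of the Psmb5 TPM in the cKO libraries and 14.4% and 14.2% in the fl/fl libraries. Psmb9 reached 21.5% and 31.7% of Psmb6 against 14.5% and 14.1%. Both ratios were nearly the same in the fl/fl libraries and higher, but far apart, in the cKO libraries. Psmb10 reached 7.12% and 10.6% of Psmb7 against 4.73% and 5.18%. The differences of the log2 ratios were 0.92, 0.87 and 0.81, which are factors of 1.90, 1.83 and 1.75. In each of the 3 ratios both cKO libraries were above both fl/fl libraries, with p = 0.333 in a two-sided exact permutation test, the smallest p that 2 against 2 libraries allow. Without cKO replicate 2 the log2 differences were 0.48, 0.59 and 0.52, and without cKO replicate 1 they were 1.37, 1.15 and 1.10. Taken over the 6 catalytic genes, the inducible ones held 13.4% and 19.6% of the TPM in the cKO libraries and 9.19% and 9.07% in the fl/fl libraries.

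**Figure D2:**
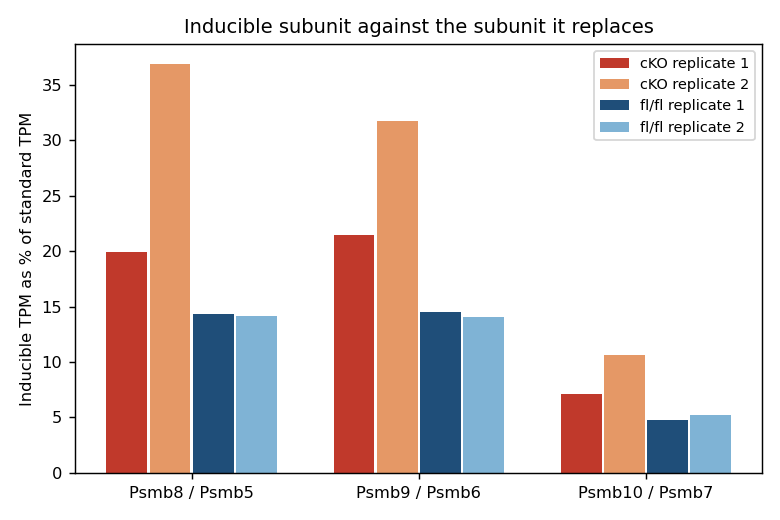
TPM of each inducible catalytic subunit as a percentage of the TPM of the standard subunit it replaces, 1 bar per library. In all 3 pairs the fl/fl bars are level and the cKO bars higher, with cKO replicate 2 above cKO replicate 1, from 36.8% for Psmb8 down to 10.6% for Psmb10.

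Genes of other cell types moved in the same libraries. The T cell markers in the table were Cd3d, Cd3e, Cd3g and Cd247, of 6 listed. All 4 were higher at an unadjusted p under 0.05, against a background of 16.5% on that side. None of these markers was at 0 in any library. They summed to 43.3 and 43.2 CPM in the cKO libraries against 13.5 and 13.3 CPM. Of 8 markers of Langerhans and other myeloid cells 2 (25%) reached that threshold, both higher. Fold changes were positive for 4 and negative for 4 (Epcam, Adgre1, Lyz2 and Ptprc). The 8 summed to 577 and 601 against 424 and 540 CPM. Of 5 dermal fibroblast markers 2 (40%), Col1a1 and Col1a2, reached that threshold, both higher, while Dcn and Lum had negative fold changes. The 5 summed to 3584 and 6235 against 2002 and 3056 CPM. Immediate early genes, which respond to handling, summed to 4012 and 1812 against 1024 and 1270 CPM. Of these 14 genes 13 had a positive fold change, and 9 (64.3%) were higher at an unadjusted p under 0.05. In bulk tissue, more cells of a type and more RNA per cell cannot be told apart. The part of any of these in the higher inducible subunits was not tested.

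The 7 tested alpha ring genes, Psma1 to Psma7, ran from 141 to 412 TPM, and none had an unadjusted p under 0.05. Psma3 had the largest difference, at 249 and 254 TPM in the cKO against 412 and 331 TPM in the fl/fl libraries. Psma1 stood at 175 and 175 against 259 and 235.5 TPM. Both genes were lower in both cKO libraries, with log2 fold changes on the counts of -0.34 ± 0.19 and -0.28 ± 0.17 (SE, edgeR adjusted p = 0.256 and 0.305). The 2 members with positive fold changes were Psma7 (0.10) and Psma4 (0.03), and both turned negative with the length trend removed and on TPM. Psma8, which forms a testis variant of the ring, had 2 to 5 counts per library and was not tested.

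The 4 remaining beta subunits have no active site. Psmb3 was the most abundant member in every library, at 518 and 479 TPM in the cKO and 416 and 515 TPM in the fl/fl libraries, values that overlapped between the groups. Psmb1 stood at 271 and 251 against 235.5 and 266.5 TPM and Psmb2 at 259 and 203 against 266 and 328 TPM. The group had no member at an unadjusted p under 0.05 on the counts. Its median log2 fold change of 0.29 on the counts was 0.04 on log2(TPM + 1) and -0.09 with the length trend removed.

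The regulatory cap unfolds tagged proteins with a ring of 6 ATPases. Psmc6 was the one ATPase with an unadjusted p under 0.05, at 154 and 166 TPM in the cKO against 324.5 and 236 TPM in the fl/fl libraries. The fl/fl libraries lay far apart and both were above the cKO libraries, and the log2 fold change was -0.74 ± 0.27 (SE, edgeR adjusted p = 0.147). The other 5 ATPases had log2 fold changes of -0.13 (Psmc4) to 0.14 (Psmc5), within their standard errors of 0.17 to 0.22, and the signs of Psmc5, Psmc3 and Psmc2 turned negative on TPM.

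Among the 11 non-ATPase subunits of the cap, unadjusted p values under 0.05 were found for 2 lower and 0 higher ones. Psmd1, a large scaffold subunit, stood at 44.5 and 34.6 TPM in the cKO libraries and 69.4 and 69.0 TPM in the fl/fl libraries. Its groups were far apart relative to the fl/fl replicates, and the log2 fold change was -0.63 ± 0.21 (SE, edgeR adjusted p = 0.129; DESeq2 0.0434). Psmd14, the enzyme that cuts ubiquitin chains from the substrate, stood at 101 and 114 against 196 and 159.7 TPM, a log2 fold change of -0.52 ± 0.18 (SE, edgeR adjusted p = 0.141). Psmd8 was the member with the largest positive value, at 267 and 233 against 209 and 232 TPM, groups that came within 1.38 TPM of each other, and 0.39 ± 0.21 on the log2 scale of the counts (SE, edgeR adjusted p = 0.249). The ubiquitin receptor Psmd4 stood at 171 and 146 against 162 and 178 TPM, with overlapping groups.

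The activators outside the PA28 alpha and beta pair had lower values. Psme3, whose product is the nuclear PA28 gamma ring, stood at 37.2 and 33.8 TPM in the cKO libraries and 59.3 and 56.3 TPM in the fl/fl libraries. Psme4, which encodes the large single-chain activator PA200, stood at 21.7 and 25.2 against 50.4 and 37.0 TPM. Both genes were lower in both cKO libraries, and the groups were well apart. The log2 fold changes were -0.52 ± 0.16 and -0.77 ± 0.22 (SE, edgeR adjusted p = 0.117 and 0.105; DESeq2 0.0451 and 0.0195). Psme3 therefore reached 0.222 and 0.186 of the Psme1 TPM in the cKO libraries and 0.440 and 0.357 in the fl/fl libraries. The median of Psme3 and Psme4 lay at percentile 70.8 of effective length, against 11.5 for all members. With the length trend removed, their log2 fold changes were -0.56 and -0.47.

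Assembly chaperones, which hold unfinished particles and are not part of the finished complex, stood at 12.5 to 58.9 TPM. None of the 7 had an unadjusted p under 0.05. Psmg3 stood at 39.9 and 31.7 TPM in the cKO and 26.0 and 30.3 TPM in the fl/fl libraries, and Psmd9 at 17.5 and 16.3 against 12.5 and 15.2 TPM. Both were higher in both cKO libraries, with log2 fold changes of 0.61 ± 0.25 and 0.46 ± 0.19 (SE, edgeR adjusted p = 0.171 and 0.174). Psmd5 had the one negative value, -0.14 ± 0.14. The pattern matches that are no proteasome part, Psmc3ip and Psme3ip1, had log2 fold changes of -0.13 and 0.19.

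**Figure D3:**
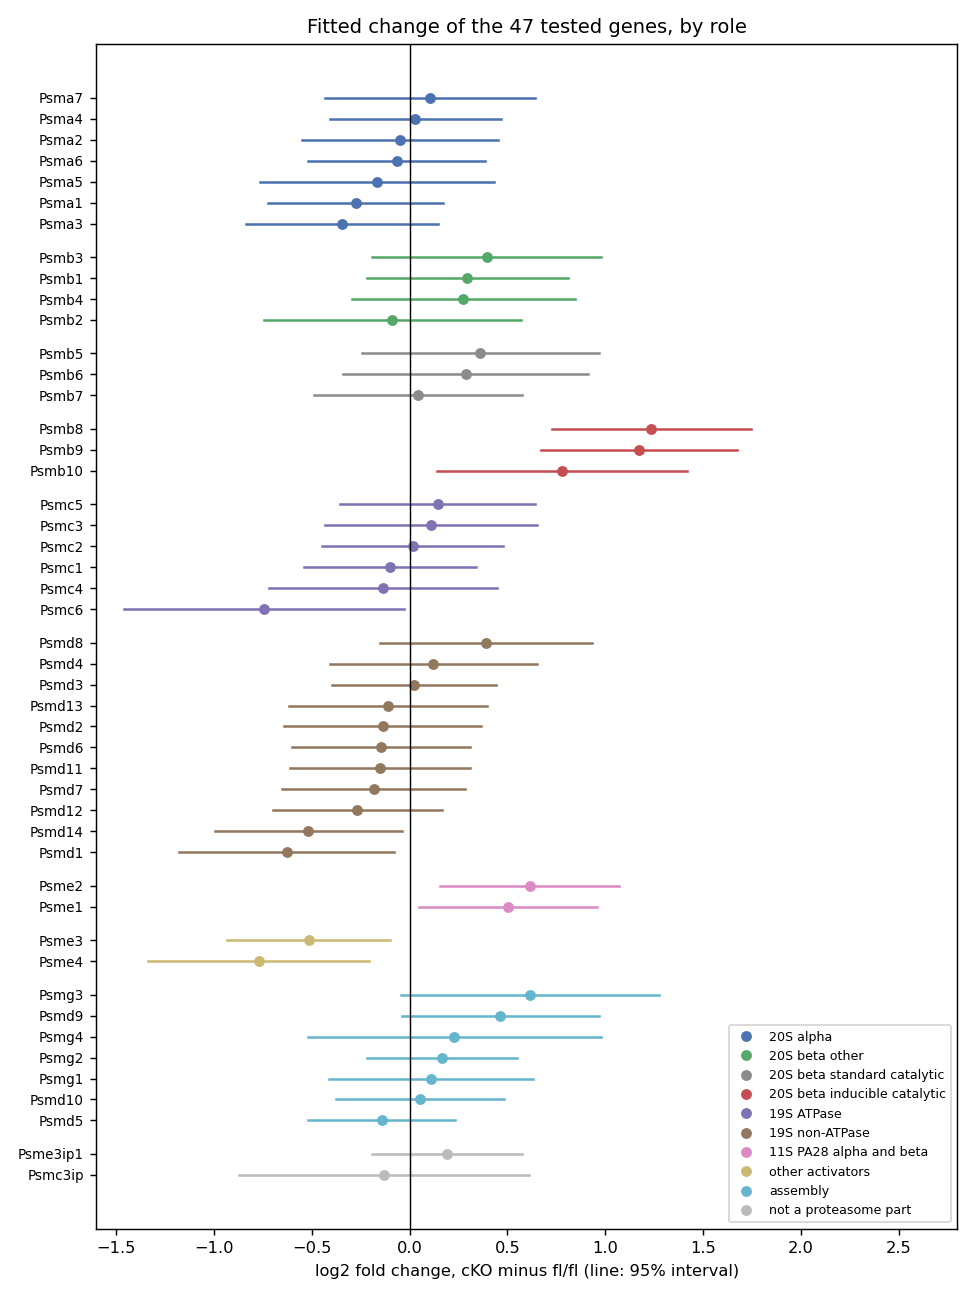
Fitted log2 fold change of the counts, cKO minus fl/fl, with its 95% interval for the 47 tested genes, grouped by role. The intervals of the 5 inducible members lie above 0, with estimates from 0.50 for Psme1 to 1.24 for Psmb8, those of Psmc6, Psmd1, Psmd14, Psme3 and Psme4 below 0, and all others include 0; the intervals are not adjusted for the number of genes.

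The scale on which levels were compared moved the proteasome genes as a body. Across all genes tested, fold changes fell with transcript length, from a median log2 fold change of 0.33 in the shortest 20% of genes to -0.33 in the longest 20%. The proteasome genes are mostly short, their median member lying at percentile 11.5 of effective length, while the median of Psme3 and Psme4 lay at 70.8. On the counts, the 37 tested members outside the inducible and standard catalytic sets split into 17 positive and 20 negative values with a median of -0.07 (0.05 without cKO replicate 2), beside 0.00022 over all genes. On log2(TPM + 1) the split was 6 and 31 with a median of -0.30, where the median over all genes was -0.16. With the length trend removed it was 3 and 34 with a median of -0.31, beside -0.02 over all genes. The inducible members had a median of 0.78 on the counts, 0.54 on log2(TPM + 1) and 0.50 with the length trend removed, positive in 5 of 5 members each time. On the last 2 scales 2 of them kept an unadjusted p under 0.05. Relative to the median of all genes they lay at 0.78, 0.69 and 0.52, and the standard catalytic subunits at 0.29, 0.18 and -0.05. The proteasome parts together held 0.677% and 0.632% of all TPM in the cKO libraries and 0.722% and 0.758% in the fl/fl libraries. The part of transcript length in these differences was measured only through these settings, and its cause was not tested.

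**Figure D4:**
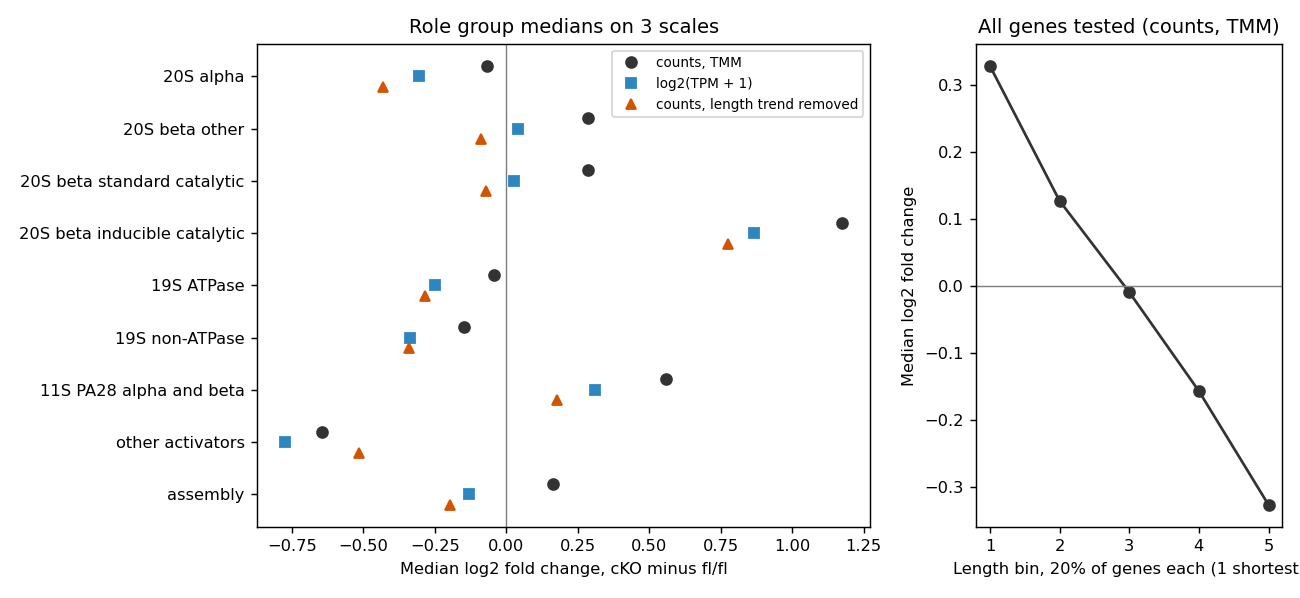
Left, median log2 fold change of each role group on the counts, on log2(TPM + 1) and on the counts with the length trend removed; right, the median over all genes in 5 equal bins of effective length, from 0.33 in the shortest to -0.33 in the longest. The inducible subunits and the PA28 alpha and beta genes stay above 0 on all 3 scales and the other activators below 0, while the standard catalytic and other beta subunits and the assembly genes cross 0.

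Of 25 further genes that regulate or feed the proteasome, unadjusted p values under 0.05 went with 2 higher and 4 lower ones (8.0% and 16.0%, near or under the background), with a median log2 fold change of -0.12. Rad23b, which shuttles ubiquitinated proteins to the cap, had 133 and 123 CPM against 264 and 186 CPM. Usp14, a deubiquitinating enzyme bound to the cap, had 72.6 and 81.4 against 201 and 109 CPM. The stress regulator Nfe2l2 had 107 and 120 against 209 and 154 CPM. These genes were lower in both cKO libraries, by log2 fold changes of -0.81 ± 0.24, -1.01 ± 0.33 and -0.68 ± 0.23 (SE, edgeR adjusted p = 0.111, 0.127 and 0.127). The small cap subunit gene Sem1, which does not bear a Psm symbol, was higher, at 272 and 204 against 121 and 151 CPM (0.81 ± 0.24, edgeR adjusted p = 0.113).

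Of 21 tested genes of peptide loading and the interferon gamma pathway, 9 higher and 1 lower one had unadjusted p values under 0.05 (42.9% and 4.76%, against 16.5% and 15.6% of all genes), with a median log2 fold change of 0.55. Tap1 and Tap2, the neighbours of Psmb8 and Psmb9, stood at 90.0 and 109 against 43.9 and 50.2 CPM and at 56.5 and 59.0 against 27.9 and 31.9 CPM. Their log2 fold changes of 1.08 ± 0.18 and 0.95 ± 0.15 were close in size to those of Psmb8 and Psmb9, with edgeR adjusted p values of 0.0722 and 0.0692. The class I gene H2-K1 stood at 1556 and 1782 against 646 and 706 CPM (edgeR adjusted p = 0.0732), and the interferon gamma receptor chain Ifngr1 at 134 and 149 against 66.7 and 74.8 CPM (0.0733). Ifng itself had 0 and 2 counts in the cKO libraries and 0 and 0 in the fl/fl libraries, so a difference in its level was not detectable at this depth.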

How the data were processed

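Each library was assigned to its group and replicate by its title. Per the labels' protocols, polyadenylated RNA was sequenced as DNA nanoballs. Strand is not stated, which leaves antisense partners unresolved. The submitters' processing notes name RSEM (1.3.1), Bowtie2 (2.3.4.3), DESeq2 (1.4.5) and mouse build GRCm39, and no annotation. Values in the table are, per the file headers, estimated counts that the authors did not normalize (11.0% to 13.0% of values not whole), TPM scaled by the authors, and FPKM scaled by the authors. The authors' normalized counts and group means were not used.

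Counts were rounded and tested with edgeR 4.0.16 (R 4.3.3), quasi-likelihood F test, TMM factors, default filter, group as the one term, with Benjamini-Hochberg adjustment over 14459 genes; 3499 genes were not tested. The biological coefficient of variation was 0.269. SE is the absolute log2 fold change over the root of F. Effective length was the count divided by the TPM, and its trend was removed as a lowess offset per library (span 0.4). Alternatives used limma 3.58.1 and DESeq2 1.42.0. The scripts were tested on simulated data with a smaller spread than these libraries, so that test does not measure the power here. Tested members had at least 52 counts in every library.

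The members, gene lists, motifs and tests were chosen with earlier results of these data known. Named were the 5 inducible and 3 standard members, within each other role up to 2 members per direction with the smallest p, untested members, matches that are no proteasome part, and the 4 genes with the smallest p of each related list. Other named members complete a count or were chosen after their values were seen. The replicate numbers are not said to pair libraries.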

Additional observations from a re-analysis of the deposited data

How the results depend on the processing

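The 5 inducible members kept a positive fold change, and Psmc6, Psmd1, Psmd14, Psme3 and Psme4 a negative one, in all 13 alternative settings, while counts of members past a threshold moved. DESeq2 called 6 members at an adjusted p under 0.05 (Psmb8, Psmb9, Psme2, Psmd1, Psme3 and Psme4) where it called 19.1% of all genes, and the fit with no scaling factors called 2 (Psmb8 and Psmb9) of 9.4%. With 1 library left out, 0 to 1 members were called, the one being Psmb8 without cKO replicate 1, where 5.97% of all genes were called. The number of members higher at an unadjusted p under 0.05, 5 with all libraries, was 2 on log2(TPM + 1), 3 on log2(TPM + 0.1) and 2 with the length trend removed (11.3%, 11.2% and 15.1% of all genes), and 2 to 6 with a library left out. The number lower, also 5, was 2 with no scaling factors (16.0% of all genes), 8 and 9 on the TPM scales (22.4% and 21.3%), 12 with the length trend removed (14.9%), and 0 to 3 with a library left out (1 or 0 when cKO replicate 1 or 2 was dropped, 0 or 3 when fl/fl replicate 1 or 2 was). Of the 5 inducible members, 2, 3 and 2 stayed under that p on log2(TPM + 1), on log2(TPM + 0.1) and with the length trend removed, and 2 to 5 with a library left out (2 without fl/fl replicate 1, 3 without either cKO library).

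With the replicate number as a block, unadjusted p values under 0.05 were left for 3 higher members, all inducible, and 0 lower ones (10.4% and 11.4% of all genes), and 0 passed the adjusted threshold. Same-numbered libraries deviated from their group means with a correlation of -0.159 across genes. A block with the numbers crossed, added after the data were seen, gave 7 higher and 5 lower (17.4% and 20.0% of all genes) and 0 past the adjusted threshold.

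The median log2 fold change of the inducible members was 0.54 and 0.56 on log2(TPM + 1) and log2(TPM + 0.1), 0.50 with the length trend removed and 0.59 to 0.98 with a library left out. That of the standard catalytic members was -0.071 with the length trend removed, and 0.0036 to 0.52 with a library left out. That of the other members was -0.30, -0.31 and -0.31 on the same 3 scales and -0.14 to 0.051 with a library left out. Among the members named by rule, signs turned negative with the length trend removed for Psmb5 (-0.058), Psmb6 (-0.071), Psmb7 (-0.34), Psmc5 (-0.15), Psmc3 (-0.10), Psmd4 (-0.15), Psma7 (-0.28), Psma4 (-0.31), Psmb3 (-0.076) and Psmb1 (-0.055). Of the other members, Psmc2, Psmd3, Psmb4, Psmd10, Psmg1, Psmg2 and Psmg4 also turned negative there, and all of these but Psmb4 on log2(TPM + 1). On log2(TPM + 1) and on log2(TPM + 0.1) signs of members named by rule turned negative for Psmb7 (-0.25), Psmc5 (-0.080), Psmc3 (-0.092), Psmd4 (-0.099 and -0.10), Psma7 (-0.15) and Psma4 (-0.20). Psma4 was also at -0.0078 with DESeq2 and -0.0079 with median-of-ratios factors. With a library left out, their signs changed within -0.093 to 0.17 for Psmb7, -0.0044 to 0.28 for Psmc5, -0.033 to 0.24 for Psmc3, -0.36 to 0.060 for Psmc4, -0.048 to 0.27 for Psmd4, -0.068 to 0.26 for Psma7, -0.021 to 0.054 for Psma4 and -0.35 to 0.14 for Psmb2. The cause of these changes was not tested. A lone library is assumed to vary like the other group. With 2 libraries per group, 2 residual degrees of freedom limit every test.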

Other observations

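Ubb, which encodes ubiquitin, was chosen after its values were seen. It stood at 1444 and 1090 TPM in the cKO libraries against 910.0 and 1055 TPM in the fl/fl libraries, highest in cKO replicate 1. The log2 fold change of the counts was 0.49 (edgeR adjusted p = 0.263). Nfe2l1, the transcription factor that restores proteasome genes when the complex is impaired, had 276 and 274 CPM against 196 and 193 CPM, a log2 fold change of 0.50 ± 0.18 (SE, edgeR adjusted p = 0.141). Its relative Nfe2l2 differed in the other direction.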
